A study of Mus musculus with 16 samples.

Results

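Sesame oil was the vehicle in a study of topical estrogen on diabetic skin wounds, and its own effect was read by comparing the 2 arrays of oil-treated db/db wounds with the 2 arrays of untreated db/db wounds labelled day 7. These 4 arrays were taken by their titles from the 16 of the series, which hold 2 arrays for each of 4 groups on each of 2 labelled days. The mice of both groups were female db/db (C57BLKS/J Iar-+Leprdb/+Leprdb), 10 weeks old and housed alone. They carry the db mutation of the leptin receptor gene from birth in every tissue, so obesity and diabetes came with both groups. Neither group is a non-diabetic control. Each mouse carried 2 full-thickness dorsal wounds of 4 mm, kept under a hydrocolloid dressing and bandages that were changed daily. The oil group, named db/db + vehicle, received the oil on the wounds every day, and the db/db group received no application. The db/db + estrogen group, which is used below only to set levels side by side, had estradiol benzoate (0.75 μg/g/day) dissolved in that oil, and the WT group was untreated female C57BL/6J. RNA was taken from whole-wound homogenate with the surrounding intact skin. The 2 arrays of a group are called biological replicates in the records, which do not say which mouse or wound each came from. The p-values therefore measure the spread between arrays of a group. That spread is pooled over all 16 arrays of the 8 groups and is not that of the 4 compared arrays alone.

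An estrogen receptor is a transcription factor that binds DNA once it holds its hormone, and Pgr and Greb1 are among the genes it is best known to switch on. Sesame oil is a plant oil, mostly triglycerides of unsaturated fatty acids, and is a usual carrier for steroids because they dissolve in fat. A skin wound first fills with neutrophils and other blood cells, then with macrophages that clear them, while keratinocytes at the edge migrate, divide and rebuild the cornified barrier.

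Levels are given as the log2 of the processed signal minus the log2 of the array's 75th percentile, so that 0 is the 75th percentile and each step of 1 is a doubling. The 75th percentile of the 4 arrays lay between 1787 and 2318 signal units, and between 74.9% and 77.4% of probes stood well above background on each. The tissue matched its label, since the keratinocyte genes Krt5, Krt14, Krt1 and Krt10 and the fibroblast genes Col1a1, Col3a1 and Dcn were in the top 10% of the tested probes on all 4 arrays. Muscle was present too, with Acta1 between 5.20 and 6.6, and so was fat, with Adipoq between 1.39 and 3.01. Replicate 1 of every group labelled day 7 was on one slide and replicate 2 on another, so the difference was also read within each slide. All arrays labelled day 7 were scanned on one day and those labelled day 14 on another, so labelled day and scan day cannot be told apart. The tables of the study list the values of these arrays under its other day, so the day on which the wounds were taken cannot be settled from the files and is written here as labelled.

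A probe was called when its unadjusted p was below 0.05 in limma's moderated test and its fold change was above 2, which are the thresholds of the study. Of 29786 probes tested, 1437 were called (4.82%), 751 of them higher with oil (2.52%) and 686 lower (2.30%). Over the genes, each read through 1 probe, 522 of 16930 were called higher (3.08%) and 411 lower (2.43%). After Benjamini-Hochberg adjustment 44 probes passed (0.148%), of which 11 were higher (0.0369%) and 33 lower (0.111%). Of these, 3 of the 11 and 11 of the 33 were well above background on neither array of the group with the lower level. The groups did not overlap at 1418 of the called probes, beside 42.2% of all tested probes. The median difference over all tested probes was 0.05, and 55.1% of them were higher with oil. The untreated arrays differed from each other by more than 2-fold at 10.1% of the tested probes and the oil arrays at 7.61%, beside 7.22% for the means of the 2 groups. Leaving out untreated replicate 1 gave 914 calls and leaving out untreated replicate 2 gave 2515, with 276 and 1532 of them higher. With the slide as a block 1440 probes were called, of which 7 passed the adjustment. A fit of only the 4 arrays gave 1303 calls, none of which passed the adjustment in limma, with 2336 probes at an unadjusted p below 0.05.

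**Figure D1:**
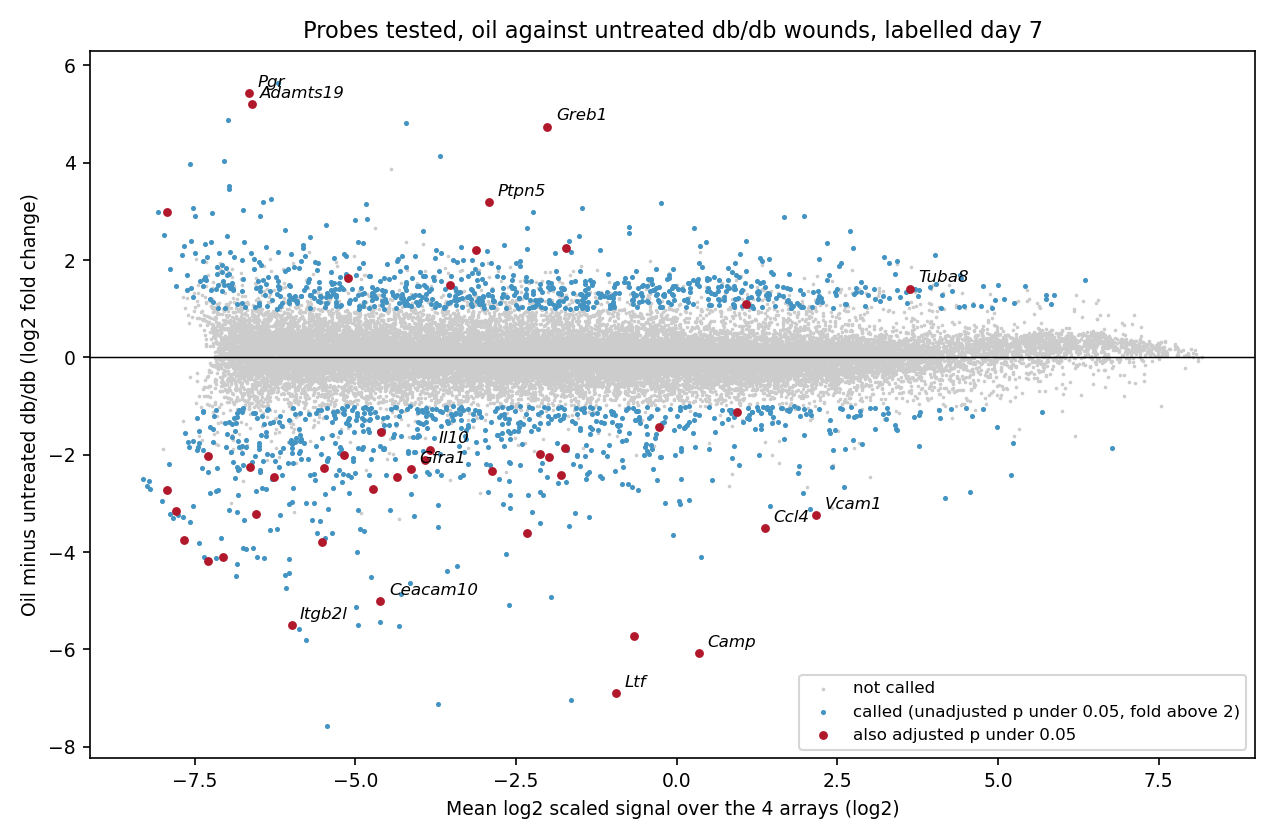
Each point is a probe tested between oil-treated and untreated db/db wounds labelled day 7, with its mean log2 scaled signal over the 4 arrays on the x axis and the log2 fold change, oil minus untreated, on the y axis. Blue marks called probes and red the 44 that also passed the adjustment, among them Pgr, Greb1 and Adamts19 at the top and Ltf and Camp at the bottom.

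The strongest call of the comparison was the progesterone receptor gene Pgr. Its level was −9.51 and −9.22 on the untreated arrays and −3.76 and −4.11 on the oil arrays. Its probe was not well above background on either untreated array and was on both oil arrays, so it entered the test through the oil arrays alone. The fitted difference and its p rest on dim untreated values, and the size of the change is a bound. The fold change was at least 11.1, and the fitted difference of 5.43 (SE 0.36) had the smallest adjusted p of any probe (limma, 0.00101). A second Pgr probe was called in the same direction with a smaller difference, 1.42 (SE 0.62, adjusted p = 0.357). Greb1, a coactivator of the estrogen receptor, was at −5.19 and −3.57 in untreated wounds and at 0.45 and 0.28 with oil. It rose by 4.74 (SE 0.53), which is 26.8-fold, with an adjusted p of 0.0174 in limma, and its second probe rose by 2.25 with an adjusted p of 0.032. Both genes were called under every alternative setting in which their probe was tested.

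The promoters of these genes are shown because the genes are known targets of a factor with a known motif. Each line gives the 250 bases before the annotated start from RefSeq, build GRCm38.p6, read 5′ to 3′ in the direction of the gene. The windows are chr9:8899583-8899832 on the + strand for Pgr, and chr12:16800887-16801136 and chr12:16757240-16757489 on the − strand for 2 starts of Greb1. Capitals mark GGTCA on either strand, which is one arm of the estrogen response element.
Pgr: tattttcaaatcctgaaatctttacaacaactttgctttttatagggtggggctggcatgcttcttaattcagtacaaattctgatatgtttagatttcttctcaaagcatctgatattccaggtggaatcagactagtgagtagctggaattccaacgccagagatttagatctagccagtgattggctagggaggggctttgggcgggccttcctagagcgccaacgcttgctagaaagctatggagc
Greb1, first start: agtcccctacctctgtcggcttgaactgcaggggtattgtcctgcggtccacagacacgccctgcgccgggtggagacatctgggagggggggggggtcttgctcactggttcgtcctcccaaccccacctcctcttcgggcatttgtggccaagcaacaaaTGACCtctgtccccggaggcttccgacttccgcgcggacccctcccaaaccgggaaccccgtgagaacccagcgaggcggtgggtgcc
Greb1, second start: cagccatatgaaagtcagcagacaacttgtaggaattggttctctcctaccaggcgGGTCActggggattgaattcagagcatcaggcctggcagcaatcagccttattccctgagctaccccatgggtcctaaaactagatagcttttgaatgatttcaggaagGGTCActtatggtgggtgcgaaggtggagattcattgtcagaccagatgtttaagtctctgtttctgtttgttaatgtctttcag
The arm was found 1 time before the first Greb1 start, 88 bases upstream, and 2 times before the second, 194 and 85 bases upstream. It was not found in the Pgr window. Of all 32851 promoter windows of this length, 35.2% held it. The full palindrome, in which 3 bases part the arm from its reverse complement, was in none of the 3 windows and in 0.0639% of all windows.

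Set beside the other groups of the same label, the oil level of Pgr lay between those of untreated and estrogen-treated wounds. The estrogen arrays were at −1.40 and −1.09 and the WT arrays at −8.55 and −8.58. Estrogen exceeded oil by 2.68 (SE 0.36, adjusted p = 0.00713 in limma), in a comparison where 2.56% of all probes passed the adjusted threshold. Greb1 was at 2.77 and 2.90 with estrogen, which exceeded oil by 2.47 (SE 0.53, adjusted p = 0.0398), and at −2.07 and −2.30 in WT. The comparisons of oil and of estrogen with db/db share the untreated arrays, so their differences are given only side by side.

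For Adamts19, Ptpn5 and Tmem229a, also past the adjusted threshold, the oil level again lay between those of untreated and estrogen-treated wounds. The place of WT differed from gene to gene. The WT arrays were near the oil level for Adamts19 (−4.44 and −5.31) and Tmem229a (−2.17 and −2.43, against −1.90 and −2.13 with oil). For Ptpn5 they were at −3.49 and −4.15. Adamts19, a secreted metalloprotease, was at −9.12 and −9.31 in untreated wounds, where it was not well above background, and at −3.24 and −4.78 with oil. That is a rise of at least 10.5-fold (fitted 5.20, SE 0.72, adjusted p = 0.032). Its estrogen arrays were at −2.98 and −2.30, and estrogen minus oil was 1.37 (SE 0.72, adjusted p = 0.307). Ptpn5, a tyrosine phosphatase best known from striatal neurons, was at −4.14 and −4.87 in untreated wounds and at −1.11 and −1.53 with oil, a rise of 3.18 (SE 0.35, adjusted p = 0.0174). Tmem229a, a transmembrane protein gene, rose by 2.21 (SE 0.32, adjusted p = 0.0367). Neither differed past the adjusted threshold between estrogen and oil, with 1.47 (SE 0.35, adjusted p = 0.0536) for Ptpn5 and 1.04 (SE 0.32, adjusted p = 0.103) for Tmem229a.

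For other genes that were higher with oil, the estrogen level lay below the oil level. Tuba8, an alpha-tubulin, was at 3.09 and 2.76 in untreated wounds, at 4.42 and 4.26 with oil, and at 3.0 and 2.91 with estrogen. It rose by 1.41 with oil (SE 0.21, adjusted p = 0.0392), and estrogen was below oil by −1.39 (SE 0.21, adjusted p = 0.011). Cnnm1, of a family of magnesium transport proteins, rose by 1.5 (SE 0.22, adjusted p = 0.0417), and estrogen minus oil was −1.06 (SE 0.22, adjusted p = 0.0377). Gabra2, a subunit of the GABA-A receptor, was not well above background in untreated wounds and rose at least 1.95-fold. It was not well above background with estrogen either, where it was at least 1.71-fold lower than with oil (adjusted p = 0.0292). The Gabra2 call was lost with normexp background correction and with a floor on dim signals. Fam160a1, a further gene on the high side, rose by 1.1 (SE 0.16, adjusted p = 0.0375).

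**Figure D2:**
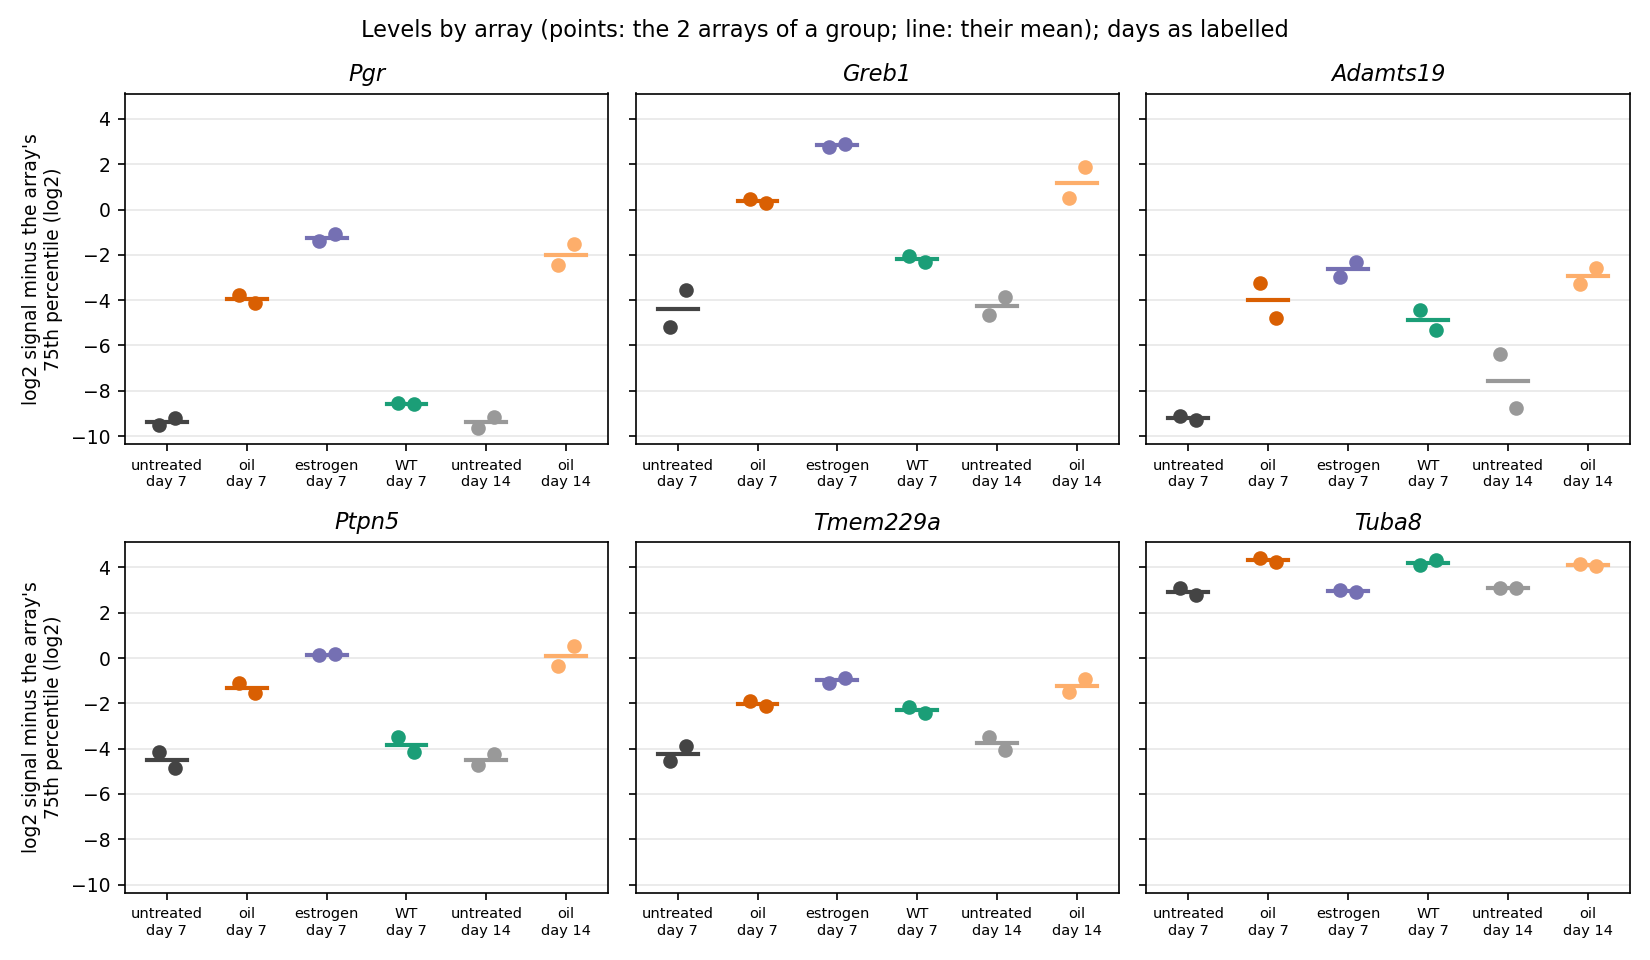
Each panel is a gene, with the log2 signal minus the array's 75th percentile on the y axis and the groups on the x axis. Points are the 2 arrays of a group and lines their mean. Pgr, Greb1, Adamts19, Ptpn5 and Tmem229a are higher with oil than untreated on both labelled days, and Tuba8 is at 4.42 and 4.26 with oil but at 3.0 and 2.91 with estrogen on day 7.

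The list of estrogen response genes had a median of 0.02 over 17 tested members. Of these 2 were called higher and 2 lower, beside 3.08% and 2.43% of all genes. The 2 higher were Pgr and Greb1. The 2 lower were Hsd17b1, an enzyme that makes estradiol (−1.17, SE 0.33, adjusted p = 0.184, not called with normexp or without oil replicate 2), and Ltf, which is also a neutrophil granule gene. The receptor itself, Esr1, was at −3.53 and −3.22 in untreated wounds and at −3.31 and −3.41 with oil, a difference of 0.02 (SE 0.36). Tff1, a trefoil peptide gene and a further estrogen target, differed by 0.99 (SE 0.58) and Ccnd1, cyclin D1, by 0.62 (SE 0.27), and neither was called.

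The lower side was led by genes of neutrophil granules, the stores of antimicrobial proteins that neutrophils fill while they mature in the marrow. Ngp, the neutrophilic granule protein, was at 2.67 and 1.09 in untreated wounds and at −6.11 and −4.21 with oil. Ltf, lactoferrin, was at 3.25 and 1.76 against −5.51 and −3.28. Camp, the cathelicidin, was at 4.11 and 2.66 against −4.02 and −1.37. Each of the 3 genes was above the 75th percentile in both untreated wounds and below it in both oil wounds. Ltf fell by 6.91 on the log2 scale (SE 0.75, adjusted p = 0.0174 in limma) and Camp by 6.08 (SE 0.81, adjusted p = 0.0302), with its second probe at −5.73. Ngp fell by 7.03 (SE 1.20, adjusted p = 0.0645). The 3 genes lie on chromosome 9, and they are shown with their promoters because they moved together. The windows of 250 bases before the start, again from RefSeq build GRCm38.p6, are chr9:111019042-111019291 on the + strand, chr9:110419558-110419807 on the + strand and chr9:109849457-109849706 on the − strand. Capitals mark TTGCNNAA on either strand, a form of the site of the C/EBP factors, which act in granule gene expression.
Ltf: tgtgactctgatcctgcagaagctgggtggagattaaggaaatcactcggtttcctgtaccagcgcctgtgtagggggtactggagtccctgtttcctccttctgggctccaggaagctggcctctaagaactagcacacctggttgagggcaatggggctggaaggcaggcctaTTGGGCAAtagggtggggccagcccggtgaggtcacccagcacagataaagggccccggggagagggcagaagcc
Ngp: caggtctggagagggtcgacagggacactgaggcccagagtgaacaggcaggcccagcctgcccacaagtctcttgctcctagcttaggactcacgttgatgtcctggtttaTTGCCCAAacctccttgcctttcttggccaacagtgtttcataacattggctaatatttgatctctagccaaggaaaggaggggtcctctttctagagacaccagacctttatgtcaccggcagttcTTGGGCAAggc
Camp: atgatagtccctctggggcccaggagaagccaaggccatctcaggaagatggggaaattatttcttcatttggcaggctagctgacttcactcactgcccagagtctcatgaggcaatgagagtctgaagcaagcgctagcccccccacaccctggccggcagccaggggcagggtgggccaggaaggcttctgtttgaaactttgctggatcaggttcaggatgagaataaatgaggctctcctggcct
The motif was found 75 bases before the Ltf start, 138 and 11 bases before the Ngp start and not in the Camp window, beside 9.56% of all windows of this length.

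Of 36 tested genes of neutrophil granules and surface, 18 were called lower and none higher, beside 2.43% of all genes called lower, with a median of −1.47 (−1.59 on slide 1 and −1.24 on slide 2). Ceacam10, a surface glycoprotein, fell by 5.01 (SE 0.67, adjusted p = 0.0302), and Itgb2l, an integrin chain of neutrophils that is not on the list, fell at least 16.1-fold (adjusted p = 0.0174). Mpo, myeloperoxidase, was at 2.98 and 0.57 against −3.03 and −0.73, a fall of 3.66 (SE 0.85, adjusted p = 0.119). The collagenase gene Mmp8 fell by 3.01 (SE 0.62, adjusted p = 0.0957), and Prtn3 and Ctsg, which encode serine proteases of the granules, by 2.41 and 2.07. Trem3, a receptor of granulocytes and macrophages, fell by 1.99 (SE 0.30, adjusted p = 0.0481), and the lipocalin gene Lcn2, which keratinocytes also express, by 1.43 (SE 0.45, adjusted p = 0.212). Of the 36 genes 30 were lower with oil and 6 higher, beside 55.1% of all probes higher. Some members that were not called showed no such difference. S100a8 and S100a9, the alarmin genes that make up much of a mature neutrophil's cytosol, differed by 0.16 (SE 0.45) and 0.12 (SE 0.52). Csf3r, the G-CSF receptor, differed by 0.12 (SE 0.40) and the integrin Itgam by 0.01 (SE 0.49). Those 4 genes, all from the 6 that were higher, overlapped between the groups. Leaving out single arrays left 15 to 18 members called.

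**Figure D3:**
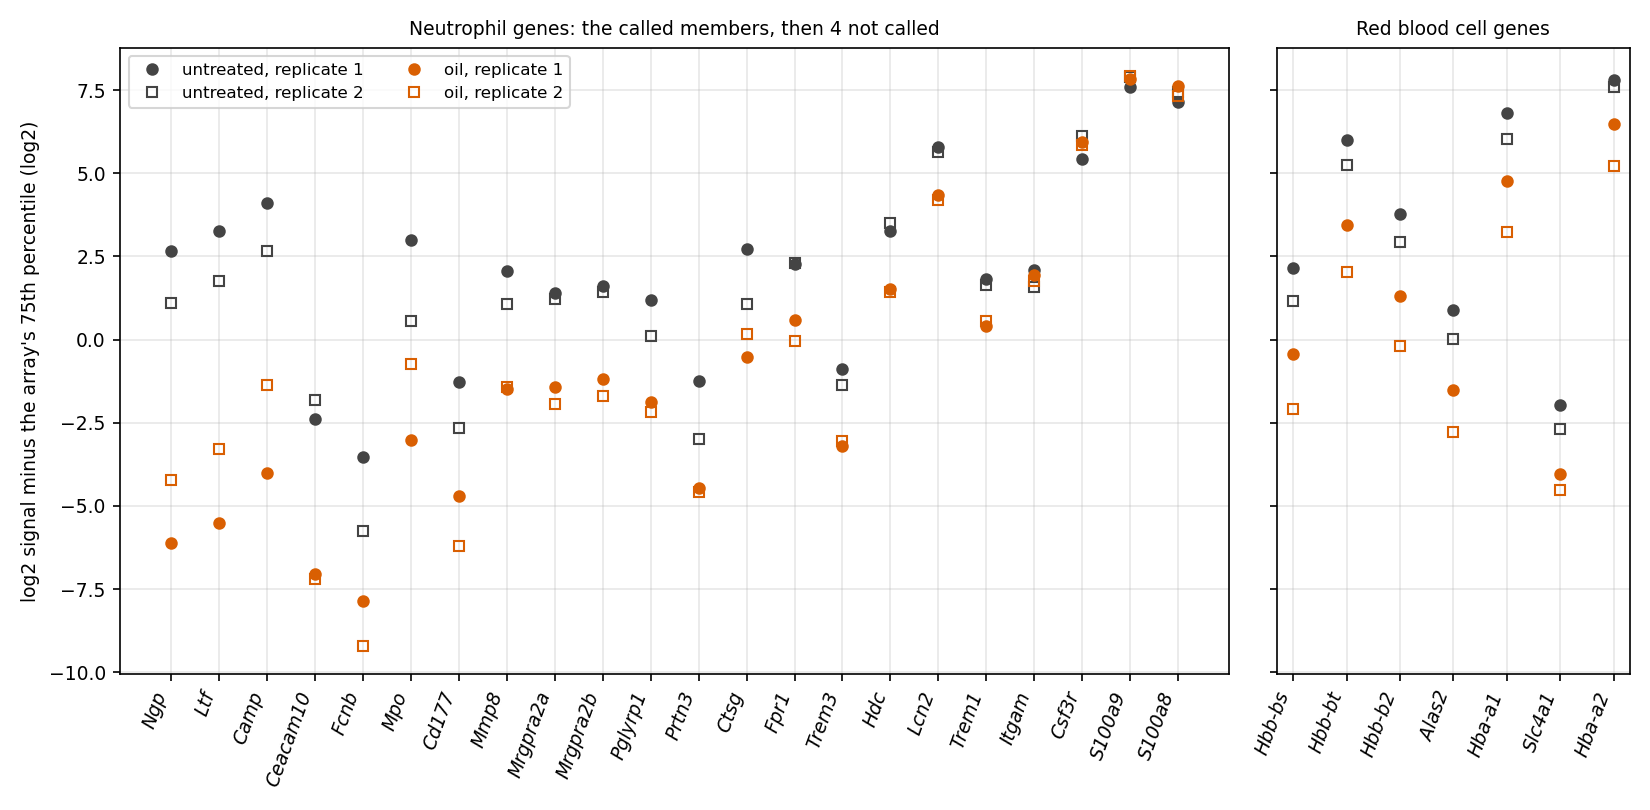
Levels on each of the 4 arrays (log2 signal minus the array's 75th percentile, y axis) for neutrophil genes and red blood cell genes (x axis), grey for untreated and orange for oil. The 18 called neutrophil genes are lower on both oil arrays, by up to 7.03, while Itgam, Csf3r, S100a9 and S100a8 lie together, and all 7 red blood cell genes are lower with oil.

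Red blood cell genes were lower on both slides too. All 7 that were tested were called lower, beside 2.43% of all genes, with a median of −2.60 (−2.40 on slide 1 and −2.80 on slide 2). Hba-a1, an alpha-globin, was at 6.80 and 6.03 in untreated wounds and at 4.78 and 3.23 with oil, a fall of 2.41 (SE 0.93, adjusted p = 0.306). Alas2, which starts heme synthesis in red cell precursors, fell by 2.60 (SE 0.91) and Slc4a1, the red cell anion exchanger, by 1.95 (SE 0.54). The globin genes are near copies of each other, so their probes cannot be taken as separate. None of the 7 passed the adjustment, and 1 of 7 stayed called without untreated replicate 1 or without oil replicate 2. The part of blood content in the fall of the granule genes was not tested. In a whole-wound sample, fewer cells of a type and less RNA per cell cannot be told apart.

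Genes of several rarer blood-derived cells were lower as well. All 13 tested mast cell and basophil genes were lower with oil and 4 were called, beside 2.43% of all genes called lower. Of these 4, Hdc is also on the neutrophil list. Mcpt8, a protease of basophils, was at −1.28 and −2.37 in untreated wounds and at −6.68 and −6.25 with oil, a fall of 4.64 (SE 0.91, adjusted p = 0.0838). Mcpt4, the protease of connective tissue mast cells, differed by −0.46 (SE 0.65) and was not called. Prg2, the major basic protein of eosinophils, was at −4.56 and −4.15 against −6.50 and −6.75 and fell by 2.27 (SE 0.32, adjusted p = 0.0332), and its call was lost with normexp. Among 10 genes of B and plasma cells 5 were called lower, beside the same 2.43%. Jchain, the joining chain of secreted antibodies, was at −0.11 and 0.23 against −4.93 and −1.89 (−3.47, SE 1.27, adjusted p = 0.282), and Mzb1, a plasma cell chaperone, fell by 2.44 (SE 0.56). That count was 2 without untreated replicate 2. Of 28 T and NK cell genes 4 were called higher and 3 lower, beside 3.08% and 2.43% of all genes. Among them Cd5 was higher by 1.33 (SE 0.38) and Cd4 lower by 1.06 (SE 0.31). Gzmd, a granzyme, fell at least 12.4-fold (adjusted p = 0.0483), and its neighbour Gzme fell by 2.25 (SE 0.53).

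Signals of inflammation fell for single genes, while the medians of their lists lay nearer 0. Ccl4, which attracts monocytes and lymphocytes, was at 2.67 and 3.58 in untreated wounds and at −0.36 and −0.40 with oil, a fall of 3.51 (SE 0.41, adjusted p = 0.0205). Ccl3, its neighbour with the same receptors, was at 2.80 and 3.17 against 0.25 and −0.38 (−3.05, SE 0.49, adjusted p = 0.0518). Vcam1, the adhesion molecule that holds leukocytes on endothelium, was at 3.84 and 3.76 against 0.53 and 0.59. It fell by 3.24 (SE 0.43, adjusted p = 0.0302), and its second probe fell by 2.42. For these 3 genes every untreated array was more than 2 above every oil array. Tnf fell by 2.10 (SE 0.46, adjusted p = 0.113), Osm, oncostatin M, by 1.82 (SE 0.47) and Cxcl2, which draws neutrophils, by 2.29 (SE 0.90). The Cxcl2 call was lost under 7 of 15 alternatives. Il1b was at 3.46 and 3.95 against 2.06 and 1.86 and was not called (−1.75, SE 1.01). Il10, an anti-inflammatory cytokine, was at −2.96 and −2.83 against −5.0 and −4.57, a fall of 1.89 (SE 0.20, adjusted p = 0.0174). In the list of 21 other chemokines 4 were called lower and 2 higher, beside 2.43% and 3.08% of all genes. The median was −0.15. The 2 higher, Ccl5 and Cxcl9, both draw T cells and were highest on oil replicate 2. Cxcl9 was at −2.65 and −3.28 in untreated wounds and at −2.52 and 0.88 with oil, and neither gene was called without oil replicate 2. The general macrophage list had a median of −0.34 over 25 genes with 2 called lower, Cd14 (−1.12, SE 0.42) and Mertk (−1.07, SE 0.36), and Adgre1, which encodes F4/80, differed by −0.39 (SE 0.29).

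Enzymes and signals of the wound bed were lower in part. Over all genes 2.43% were called lower. Of 22 matrix metalloproteinase genes 5 were called lower, a count that was 3 without untreated replicate 1 and 3 without oil replicate 1. Of these 5, Mmp8 is also on the neutrophil list, and the Mmp7 call was lost with normexp. Mmp3, stromelysin, was at 6.26 and 5.64 in untreated wounds and at 2.79 and 3.60 with oil, a fall of 2.76 (SE 0.80, adjusted p = 0.187). Mmp2 fell by 1.18 and Mmp14, which activates it, by 1.03. Nrg1, an ERBB ligand, fell by 1.84 (SE 0.46). Fgf7, which fibroblasts make for keratinocytes, fell by 1.29 (SE 0.47), a call lost without untreated replicate 1 or oil replicate 2. The related Fgf10 was called at −1.26 (SE 0.53), but not under 9 of 15 alternatives. Vegfa, the main growth factor of new vessels, was at 0.94 and 1.17 against 2.83 and 2.12 and rose by 1.41 (SE 0.34, adjusted p = 0.132), while the endothelial gene Pecam1 differed by −0.46 (SE 0.24). Col1a1 differed by 0.05 and the smooth muscle actin gene Acta2 by −0.32 (SE 0.39), and neither was called. Cnn1, calponin, fell by 1.80 (SE 0.55).

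Genes of the cornified layer were higher. Of 41 tested barrier genes 40 were higher, beside 55.1% of all probes, and 7 were called, beside 3.08% of all genes. The median was 1.11 (1.32 on slide 1 and 0.99 on slide 2). Rptn, repetin, was at −0.42 and 0.17 in untreated wounds and at 2.85 and 1.70 with oil, a rise of 2.40 (SE 0.88, adjusted p = 0.282). Tgm5, a transglutaminase that cross-links the envelope, was at 0.00 and 0.37 against 2.09 and 1.83 and rose by 1.78 (SE 0.40, adjusted p = 0.113). Casp14 rose by 1.34 and the lipoxygenase genes Aloxe3 and Alox12b by 1.37 and 1.43. Lor, loricrin, overlapped between the groups (0.67, SE 0.80). The count of called barrier genes was 1 without untreated replicate 1, 4 without oil replicate 2 and 11 without untreated replicate 2.

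The Sprr and Lce3 genes, which keratinocytes switch on after injury, depended on the slide. All 18 were higher in the fit, beside 55.1% of all probes, and 8 were called, beside 3.08% of all genes. The median was 1.75 in the fit, but 3.34 on slide 1 and 0.24 on slide 2. Lce3a was at 0.19 and 3.05 in untreated wounds and at 4.52 and 3.20 with oil, so that untreated replicate 2 was close to both oil arrays. Sprr2b, the member with the largest change, was at −4.55 and −2.91 against −0.07 and −1.43 and rose by 2.98 (SE 0.72, adjusted p = 0.13). The count was 1 without untreated replicate 1 and 1 without oil replicate 1, and 12 and 11 without the other array of either group. Among the wound keratins Krt17 rose by 1.20 (SE 0.45), while Krt6a (0.80, SE 0.80) and Krt16 (0.88, SE 0.38) were not called. Defb3, a beta-defensin of epidermis, was at −3.04 and −2.96 against 1.31 and −1.18 and rose by 3.06 (SE 0.77, adjusted p = 0.141). Wfdc12, a protease inhibitor, was at −1.85 and −1.81 against 1.83 and 0.86 and rose by 3.17 (SE 0.92, adjusted p = 0.188).

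Keratins of the growing hair follicle were higher on both slides. Of 22 tested genes 20 were higher, beside 55.1% of all probes, and 8 were called, beside 3.08% of all genes. The median was 1.11 (1.20 on slide 1 and 1.22 on slide 2). Krt25, of the inner root sheath, was not well above background in untreated wounds and was at −5.23 and −1.52 with oil, at least 16.3-fold higher (adjusted p = 0.141). Krt71, of the same sheath, was at −6.04 and −7.21 against −4.08 and 0.46, so oil replicate 2 stood far above oil replicate 1. Krt84, a further keratin of the list, was at −3.31 and −2.23 against −0.83 and 0.28. It rose by 2.50 (SE 0.67, adjusted p = 0.165), by nearly the same amount on each slide. The transcription factor genes Foxn1 and Hoxc13 rose by 1.40 and 1.09. The keratin-associated protein genes of the hair shaft had a smaller median of 0.20 over 27 genes, of which 22 were higher, beside 55.1% of all probes. None was called higher and 1 was called lower, beside 3.08% and 2.43% of all genes. The 1 was Krtap11-1, a call lost with the slide as a block and with array weights. The count of hair follicle keratins called was 3 without untreated replicate 1, 4 without oil replicate 2 and 3 with normexp.

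Genes of antigen presentation and of the interferon response were higher, the first mainly on slide 2. All 14 MHC class II and Langerhans cell genes were higher, beside 55.1% of all probes, and 6 were called, beside 3.08% of all genes. Their median was 0.60 on slide 1 and 1.70 on slide 2. Cd74, the invariant chain, was at 2.12 and 2.31 in untreated wounds and at 2.92 and 4.41 with oil, a rise of 1.45 (SE 0.41, adjusted p = 0.183), and H2-Ab1 rose by 1.40 (SE 0.41, adjusted p = 0.195). None of the 14 was called without oil replicate 2, 3 were without untreated replicate 1, and 1 was in a fit of only the 4 arrays. Of 42 interferon-response genes 40 were higher and 12 were called, beside the same shares. The median was 0.74 (0.54 on slide 1 and 0.95 on slide 2). Ifit1, an antiviral RNA-binding protein gene, was at −5.23 and −5.72 against −3.33 and −3.76, a rise of 1.93 (SE 0.49, adjusted p = 0.148) of nearly the same size on each slide. Irf7 rose by 1.65 (SE 0.47), Oas2 by 1.59 (SE 0.44) and Oasl1 by 1.52 (SE 0.28, adjusted p = 0.0741). That count was 7 without untreated replicate 1 and 7 without oil replicate 2. Of 20 genes of alternatively activated macrophages 5 were called higher and 2 lower, beside 3.08% and 2.43% of all genes. Lyve1, also a marker of lymph vessels, rose by 1.77 (SE 0.57), Cd209d by 1.77 (SE 0.69) and Folr2 by 1.14 (SE 0.26), while the mannose receptor gene Mrc1 differed by −0.64 (SE 0.52) and Arg1 by 0.66 (SE 0.49). Without oil replicate 1 none of the list was called higher, and 1 was without untreated replicate 2.

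Lists chosen for what an applied oil might touch held few called genes on the arrays labelled day 7. Over all genes 3.08% were called higher and 2.43% lower. Of 27 genes that fatty acids induce through PPAR receptors, none was called higher, and the median was −0.03. Angptl4 was at 4.69 and 4.96 in untreated wounds and at 4.83 and 4.82 with oil, a difference of 0.00 (SE 0.23), and the lipid droplet gene Plin2 differed by −0.43 (SE 0.41). None of 28 xenobiotic and oxidative stress genes and none of 25 sebaceous and fatty acid synthesis genes was called, with medians of −0.03 and 0.40. Cyp1a1, the classic target of the aryl hydrocarbon receptor, was at −4.0 and −2.83 against −3.56 and −1.06 (1.1, SE 0.73), and Scd1, the desaturase, differed by 0.94 (SE 0.39). Of 24 sterol genes 17 were higher, with a median of 0.57 (0.49 on slide 1 and 0.53 on slide 2). Only 1 was called, the receptor gene Nr1h3, which was lower (−1.06, SE 0.33). On the arrays labelled day 14, 7 of 24 sterol genes and 9 of 25 sebaceous and fatty acid synthesis genes were called higher. There 5.31% of all probes were called higher. These counts were read by the study's rule, and a p that misses it does not show that levels were alike.

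Cell cycle genes were all slightly higher and none was called. All 28 tested members were higher, beside 55.1% of all probes, with a median of 0.40 (0.36 on slide 1 and 0.48 on slide 2), and Mki67 was at 1.80 and 1.92 in untreated wounds and at 2.13 and 2.38 with oil. The median stayed between 0.35 and 0.49 under all alternatives. Muscle genes varied widely between the arrays of a group. Myh7, the slow myosin, was at 4.48 and 2.26 in untreated wounds and at 5.09 and −3.69 with oil, and none of 12 slow and 19 fast fibre genes was called. None of 36 respiratory chain genes was called, with a median of 0.13. Lepr, whose mutation both groups carry, differed by 0.33 (SE 0.41), and Lep by 0.21 (SE 0.87). The glandular kallikrein genes were higher in 13 of 13 with 2 called, beside 3.08% of all genes. The 2 were Klk1b11 (2.83, SE 0.79) and Klk1b27. Klk1b27 was not well above background in untreated wounds and rose at least 1.61-fold, a call lost with normexp and with the floor on dim signals. These paralogs are so alike that a probe may also measure its neighbours.

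**Figure D4:**
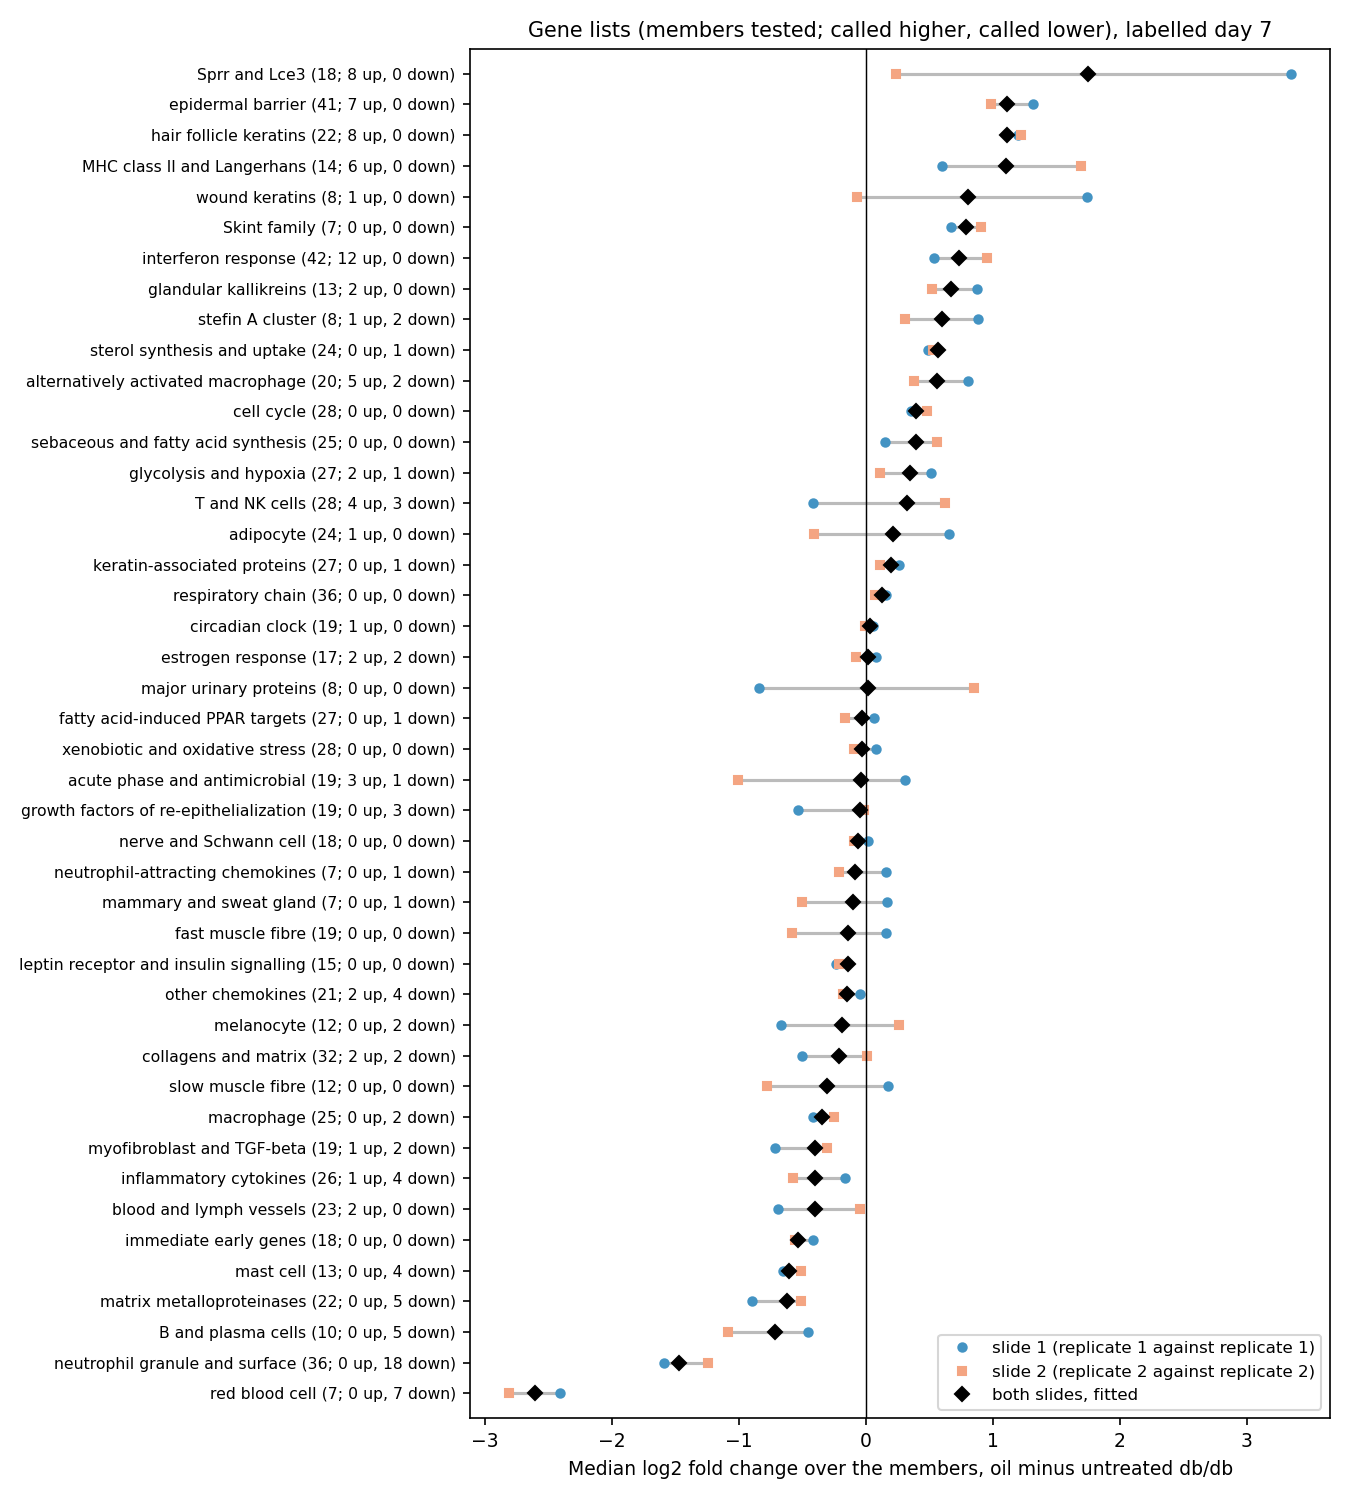
Median log2 fold change, oil minus untreated, over the tested members of each of the 44 gene lists (y axis, with the members tested and those called higher and lower). Diamonds are the fit of both slides, circles slide 1 and squares slide 2. Red blood cell and neutrophil genes lie at −2.60 and −1.47 with both slides close together, while Sprr and Lce3 genes lie at 3.34 on one slide and 0.24 on the other.

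The other named genes past the adjusted threshold were lower with oil and small in number. Kcnj8, a potassium channel subunit of pericytes, was at −1.50 and −1.91 in untreated wounds and at −3.95 and −4.11 with oil, a fall of 2.33 (SE 0.31, adjusted p = 0.0302). Gfra1, the GDNF receptor, was at −3.01 and −2.97 against −5.50 and −5.06, a fall of 2.29 (SE 0.28, adjusted p = 0.0221). Slit2, a guidance ligand, fell by 1.87 (SE 0.28, adjusted p = 0.0412) and Sntg2, a syntrophin, by 2.01 (SE 0.24, adjusted p = 0.0205), the latter not called with normexp. For Gfra1, Slit2 and Sntg2 the estrogen arrays lay nearer the untreated than the oil arrays, and estrogen exceeded oil by 2.69 for Gfra1 (adjusted p = 0.00301), 1.99 for Slit2 (adjusted p = 0.00857) and 1.76 for Sntg2 (adjusted p = 0.00759). Mrgpre, of a receptor family of sensory neurons, fell by 2.05 (SE 0.24, adjusted p = 0.0205), the sorting receptor gene Sorl1 by 1.43 (SE 0.20, adjusted p = 0.032) and the signalling adaptor Sh2d3c by 1.13 (SE 0.15, adjusted p = 0.029). Abcg3, of the ABC transporter family, fell at least 3.29-fold (adjusted p = 0.0392) and Ctsj, a cathepsin, at least 1.61-fold (adjusted p = 0.0497). The calls of both were lost with normexp, and that of Ctsj also with the floor on dim signals. Dmrtc1c2 passed through 1 probe while its brighter probe was not called (−0.29, SE 0.21).

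The same treatment was also read on the arrays labelled day 14, 2 with oil and 2 untreated, which share no array with those above. Both comparisons use the same pooled estimate of each probe's spread, so their p-values and calls are not independent. Of the 11 probes past the adjusted threshold on the high side, all 11 were higher there and 10 were called (background 5.31% of probes called higher). Pgr was at −9.66 and −9.14 untreated and at −2.45 and −1.53 with oil, and was again not well above background on either untreated array. It was at least 38.5-fold higher with oil (adjusted p = 4.98e-05), where 0.193% of probes passed the adjusted threshold. Greb1 differed by 5.44 (SE 0.53, adjusted p = 0.00932), Ptpn5 by 4.59 (SE 0.35, adjusted p = 0.00209), Adamts19, measured on 1 of the 2 untreated arrays, by 4.65 (SE 0.72, adjusted p = 0.044) and Tmem229a by 2.55 (SE 0.32, adjusted p = 0.0256). Of the 33 on the low side 26 were tested there, of which 21 were lower and 14 were called (background 2.20%). Among the called probes in all, 390 of the 709 higher ones tested on day 14 were called higher there and 177 of the 604 lower ones lower, while 0 and 15 were called the other way.

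The difference between the labelled days was tested in the same model. It was called at 858 of 30511 probes (2.81%), 698 of them with the lower value on day 7 (2.29%). None passed the adjustment in limma, where the smallest adjusted p was 0.0535, and 1523 had an unadjusted p below 0.05. Of the neutrophil list 9 of the tested members were called in this test, with 18 called lower on day 7 and 7 on day 14. Ltf differed between the days by −4.19 (unadjusted p = 0.00281 in limma), from a difference of −2.71 on day 14, and Mcpt8 by −4.61 (unadjusted p = 0.00522), from a difference of −0.04 on day 14. Red blood cell genes had a median of −1.07 on day 14 with 1 called, and no member was called in the test of the difference. For Pgr both effects are lower bounds, so their difference cannot be given. Tnf differed by −2.10 between the days (unadjusted p = 0.00955), from a difference of 0.00 on day 14.

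**Figure D5:**
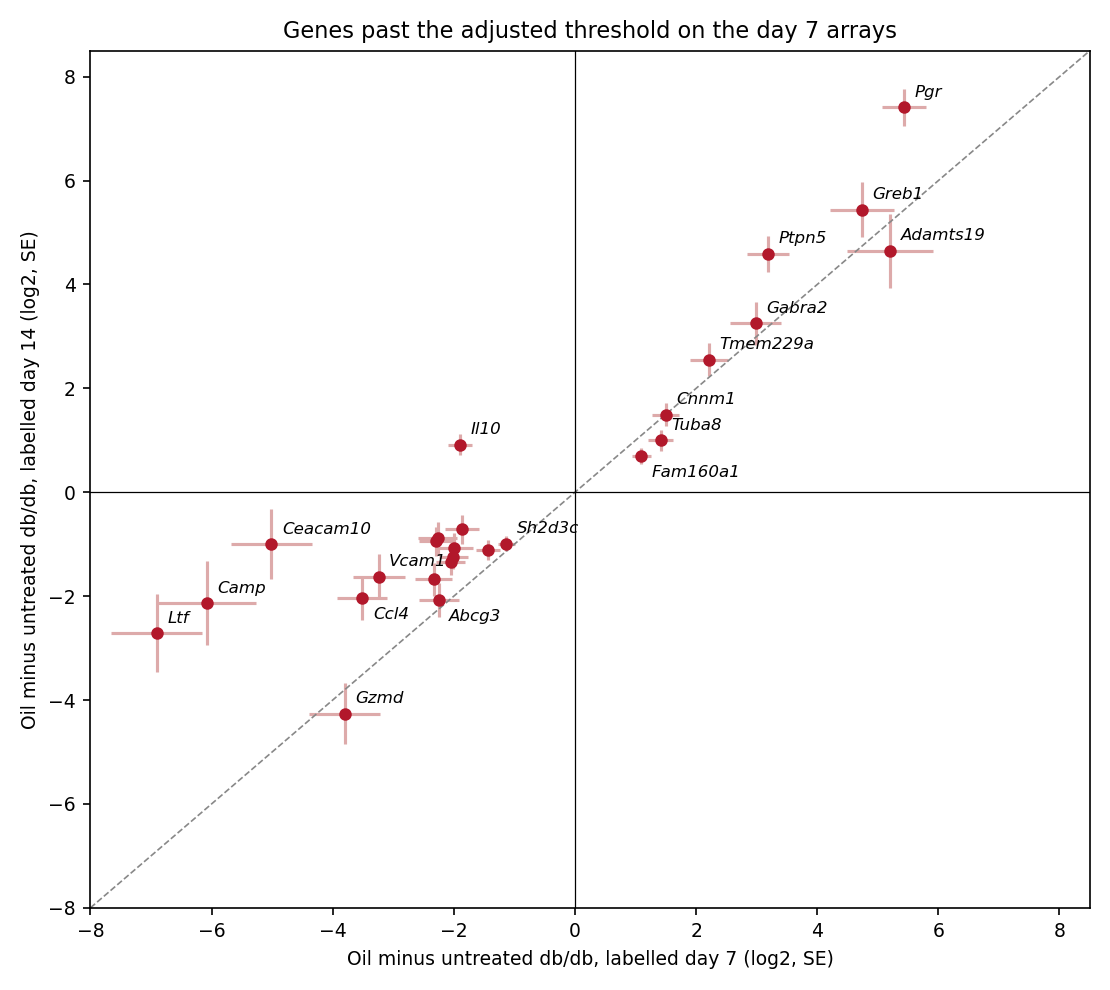
Log2 fold change of oil against untreated db/db on the arrays labelled day 7 (x axis) and day 14 (y axis), with standard errors, as fitted, for the 26 named genes past the adjusted threshold on day 7 that were tested on both days. The dashed line marks equal values. Greb1 and Tmem229a lie within their errors of it at the top right and Ptpn5 lies above it. Ltf, Camp and Ceacam10 lie above it on the left, and Il10 is at −1.89 on day 7 and 0.91 on day 14. Pgr, Adamts19, Gabra2, Gzmd and Abcg3 are drawn at their fitted values. Their day 7 effects are bounds, so their place against the line cannot be read.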

How the data were processed

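Whole-wound RNA was measured on 1-colour Agilent mouse arrays. The deposited intensities are the processed signals of Feature Extraction 11.0.1.1, per the file headers. They are corrected for background and spatial trend, per the study's methods. The deposited series matrix holds linear ratios of each signal to its array's 75th percentile, which the authors made in GeneSpring. It was used as an alternative. Spots flagged as outliers, 90 to 309 on an array, were left out, and the remaining spots of 1 probe were averaged. The log2 of each mean was then taken and the array's log2 75th percentile over probes was subtracted. Of 39429 probes, 27427 were named by matching their transcript identifiers to RefSeq genes. A gene was read through its brightest probe where several passed. No spot was saturated. The number of arrays limits the precision. A model in limma 3.58.1 (R 4.3.3) had 1 coefficient for each of the 8 groups over the 16 arrays, which share 1 estimate of the spread. Benjamini-Hochberg adjustment ran over 29786 probes, those for which the oil group, the untreated group or both had 2 arrays well above background. A probe well above background on neither array of a group has a bound ("at least N-fold"), taken from the lowest signal well above background. The code was tested on simulated data. Named genes were those past the adjusted threshold, the largest called changes and the defining members of 44 lists. Csf3r, Itgam, Tff1 and Ccnd1 were named after their values were seen. The members and lists were chosen with earlier results of these data known. Alternatives were normexp, quantile scaling, the filter, a floor, the series matrix values, fewer arrays, blocks, array weights and leaving out single arrays. Promoter sequences came from RefSeq build GRCm38.p6.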

Additional observations from a re-analysis of the deposited data

Results flagged for a closer look

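For 3 named genes the oil and untreated arrays did not overlap on either labelled day, lay in opposite order on day 7 and day 14, and differed between the days by the unadjusted rule. None of the 3 was called on day 14, where the adjusted p in limma was 0.0954 for Il10, 0.722 for Vegfa and 0.646 for Cxcl12, so no reversal was shown. Il10 was lower with oil on day 7 (−1.89) and at 0.91 on day 14, a difference of −2.81 (SE 0.28, adjusted p = 0.0535 in limma). Vegfa was higher with oil on day 7 (1.41) and at −0.26 on day 14, a difference of 1.67 (SE 0.49, adjusted p = 0.828 in limma). Cxcl12, a chemokine of fibroblasts, was lower on day 7 (−1.22) and at 0.42 on day 14, a difference of −1.64 (SE 0.62, adjusted p = 0.951 in limma). None of the 3 passed the adjustment.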

How the results depend on the processing

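The count of 1437 called probes was 911 with normexp background correction, 492 higher and 419 lower, and 44 when the adjusted p replaced the unadjusted p. Leaving out single arrays gave 914 to 2515 called, 276 to 1532 higher and 638 to 983 lower. The share of called probes that were higher was 52.3%, and 30.2% without untreated replicate 1. The 44 probes past the adjustment depended most on the setting. They were 90 with quantile normalization, 82 with a floor on dim signals, 21 over probes well above background on all arrays, 8 over the 8 arrays labelled day 7, 7 with the slide as a block, 1 with array weights and 0 over only the 4 arrays, where 2336 had an unadjusted p below 0.05 in limma. Leaving out single arrays gave 2 to 103. With the replicate number as a block over the 8 arrays, 1363 probes were called and 0 passed the adjustment in limma, with 2790 at an unadjusted p below 0.05. The numbers were not taken as pairing, because deviations of same-numbered arrays correlated at 0.33 for oil and untreated but between −0.23 and −0.05 for the other pairs of groups. The difference between labelled days, 858 probes, was 354 with normexp, 374 over probes well above background on all arrays and 1388 with the slide as a block, and 662 to 1112 when single arrays were left out, of which leaving out those labelled day 14 was chosen after seeing the data. It was not run in the fits of only the 4 arrays, the 8 arrays or the replicate block, which hold no array labelled day 14. Of 152 called named genes, 57 were called under every setting in which they were tested, and none changed direction. The causes were not tested. With 2 arrays a group, dim probes give only bounds.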
